A study of Mus musculus with 61 samples.

Results

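The periaqueductal gray (pag) is the gray matter around the aqueduct of the midbrain, and its gene expression was compared here between 6 inbred mouse strains. All arrays labelled with this region entered, which were 12 of the 61 arrays of the series, and none was chosen by its values. The strains were 129S6/SvEvTac, A/J, C3H/HeJ, DBA/2J, FVB/NJ and C57BL/6J, with 2 arrays each. All animals were wild-type males of 8 weeks, without an engineered allele or a treatment. Each array held total RNA pooled from 2 mice, except that array 2 of A/J held RNA of 1 mouse, and the replicates came from independent animals. Mice of 129S6/SvEvTac came from Taconic Farms and those of the other 5 strains from the Jackson Laboratory, so strain and supplier cannot be told apart for 129S6/SvEvTac. The other 49 arrays covered the hippocampus, the bnst (bed nucleus of the stria terminalis), the hypothalamus and the pituitary gland of the same strains.

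The pag organizes defensive behavior such as freezing and flight, shapes vocalization and autonomic responses, and controls pain through descending projections to the medulla. Opioids act in it by inhibiting local GABAergic neurons, which releases these descending outputs. Its ventral part borders the dorsal raphe nucleus, a major source of forebrain serotonin, and contains scattered dopamine neurons. Mice of an inbred strain are nearly homozygous and share the same alleles, so that replicate pools of a strain differ in little but environment and handling.

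The deposited values were signals per probe set, a group of short probes that reads part of a transcript, on a linear scale without a natural unit. Serotonin neuron genes marked the region in every strain. The signal of Tph2, which encodes the brain enzyme that starts serotonin synthesis, was between 750.6 and 1542 on the 12 pag arrays, against at most 17.9 on the 49 other arrays, and that of the serotonin transporter gene Slc6a4 was between 676.5 and 1551, against at most 20.7. The summed signal of 13 midbrain and dorsal raphe markers was 3012 to 5119 in the pag, against 206 to 965 elsewhere. Some regional markers varied between arrays. Array 1 of 129S6/SvEvTac had 1139 for Th and 1116 for Slc6a3, markers of dopamine neurons, against 171 and 101 on array 2 of this strain, and the summed signal of 6 thalamic markers was 1887 and 2149 in A/J, against 1083 to 1583 in the other strains. Array 2 of 129S6/SvEvTac and array 1 of C3H/HeJ stood apart in their signals as a whole: their medians were 65.0 and 62.7, against 45.5 to 56.1 on the other 10 arrays, and they correlated with their replicates at r = 0.955 and r = 0.951 across probe sets, against 0.973 to 0.980 in the other 4 strains. Among arrays of other strains these 2 were closest to each other (r = 0.956), no further than from their own replicates. Array 1 of 129S6/SvEvTac and array 2 of C3H/HeJ also correlated more with an array of another strain (0.969 and 0.970). What the 2 arrays shared was not tested. Tissue was measured in bulk, so fewer cells of a type and less RNA per cell cannot be told apart.

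Expression in the pag differed between strains in a minority of the probe sets. Of 41085 probe sets tested, 3404 (8.29%) differed between the 6 strains at an adjusted p under 0.05 by limma's F test, and they named 2202 genes. Signals were tested on the log2 scale after values under a floor of 12.8, the 20th percentile of all signals, had been raised to it, so where a strain lay under the floor its log2 difference is a lower bound. The p-values measure the spread between 2 independent pools of a strain, and the number of arrays limits their precision. The largest difference between any 2 strains exceeded 2-fold in 1768 of them (51.9%) and had a median of 1.03 on the log2 scale, against 0.624 over all probe sets tested. A pair of strains also differed in 3360 of the 3404, and in the other 44 no single pair passed its own threshold. With 2 arrays a strain, the number of calls moved with single arrays. It was 1955 and 2027 without array 2 and array 1 of C57BL/6J, 1963 and 1975 without array 1 and array 2 of FVB/NJ, 2265 without array 1 of DBA/2J, and 1660 when every array was scaled to one median.

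The strains were not equally far apart. Between DBA/2J and C57BL/6J 1695 probe sets differed (4.13% of those tested), followed by 1683 between C3H/HeJ and FVB/NJ (4.1%) and 1584 between 129S6/SvEvTac and FVB/NJ (3.86%). The fewest were 569 between 129S6/SvEvTac and C3H/HeJ (1.38%), 580 between A/J and C3H/HeJ (1.41%) and 588 between A/J and DBA/2J (1.43%). Between these lay 637 for 129S6/SvEvTac minus C57BL/6J (1.55%), 661 for C3H/HeJ minus DBA/2J (1.61%) and 776 for C3H/HeJ minus C57BL/6J (1.89%), then 1110 for 129S6/SvEvTac minus A/J (2.7%), 1247 for A/J minus C57BL/6J (3.04%), 1259 for 129S6/SvEvTac minus DBA/2J (3.06%), 1276 for A/J minus FVB/NJ (3.11%), 1407 for DBA/2J minus FVB/NJ (3.42%) and 1464 for FVB/NJ minus C57BL/6J (3.56%). The pair with the fewest joins the 2 strains with an array that stood apart. Without both of those arrays, 336 probe sets differed between 129S6/SvEvTac and C3H/HeJ, 312 between A/J and C3H/HeJ, 1060 between C3H/HeJ and FVB/NJ, and 809 between 129S6/SvEvTac and FVB/NJ. DBA/2J and FVB/NJ then differed in 2214 probe sets, against 1407 with all arrays. The order of the pairs moved with scaling too: with one median for every array 636 probe sets differed between DBA/2J and C57BL/6J and 1337 between C3H/HeJ and FVB/NJ.

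Set against C57BL/6J, each of the other strains had more probe sets with lower signal than with higher signal, but without array 1 of 129S6/SvEvTac this strain had 498 higher and 439 lower. In FVB/NJ 493 were higher and 971 lower than in C57BL/6J (1.2% and 2.36% of those tested), and in C3H/HeJ 261 were higher and 515 lower (0.635% and 1.25%). The split was 232 higher and 405 lower for 129S6/SvEvTac (0.565% and 0.986%), 509 and 738 for A/J (1.24% and 1.8%), and 762 and 933 for DBA/2J (1.85% and 2.27%). Against FVB/NJ, 925 were higher and 659 lower in 129S6/SvEvTac (2.25% and 1.6%) and 892 and 791 in C3H/HeJ (2.17% and 1.93%), while 592 and 684 in A/J (1.44% and 1.66%) and 682 and 725 in DBA/2J (1.66% and 1.76%) were closer to even, as were 284 and 296 in A/J against C3H/HeJ (0.691% and 0.72%). After scaling to one median 278 were higher and 817 lower in 129S6/SvEvTac than in FVB/NJ, and 248 higher and 1089 lower in C3H/HeJ, so that both directions turned round. That between FVB/NJ and C57BL/6J was 326 higher and 352 lower, whereas in DBA/2J 173 were higher and 463 lower than in C57BL/6J. How far scaling shapes these directions was not tested beyond these counts.

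**Figure D1:**
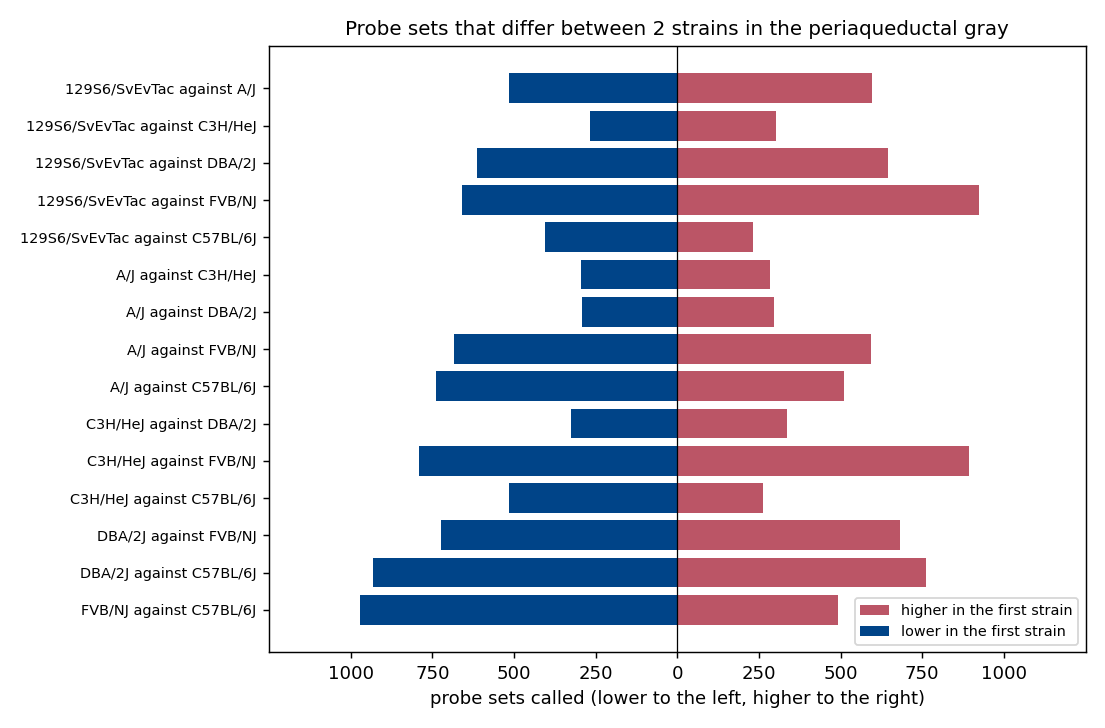
Number of probe sets that differed between the strains of each pair in the pag (limma, adjusted p under 0.05), with those higher in the strain written first to the right of 0 and those lower to the left. The longest bars to the left were 971 for FVB/NJ against C57BL/6J and 933 for DBA/2J against C57BL/6J, the longest to the right 925 for 129S6/SvEvTac and 892 for C3H/HeJ, both against FVB/NJ, and the bars of 129S6/SvEvTac against C3H/HeJ sum to 569.

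In 433 probe sets (1.05% of those tested) 1 strain differed from all 5 others in the same direction while no other pair differed. These were mostly losses of signal: the strain was lower in 298 of them (68.8%) and higher in 135. FVB/NJ was lower in 95 and higher in 24, and C57BL/6J was higher in 62 and lower in 36. DBA/2J was lower in 50 and higher in 21, 129S6/SvEvTac lower in 58 and higher in 13, A/J lower in 34 and higher in 3, and C3H/HeJ lower in 25 and higher in 12. C57BL/6J was the strain whose own probe sets were more often higher than lower, but without its array 2 they were 20 higher and 25 lower. The count of 129S6/SvEvTac hung on its arrays, with 197 probe sets without array 1 and 38 without array 2 in place of 71. Without array 1 its balance turned round, to 135 higher and 62 lower. Which strain stood apart most often was not settled: with one median for every array FVB/NJ had 60 (26 higher and 34 lower) and C57BL/6J 72, and without array 1 of FVB/NJ these strains had 47 and 73.

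**Figure D2:**
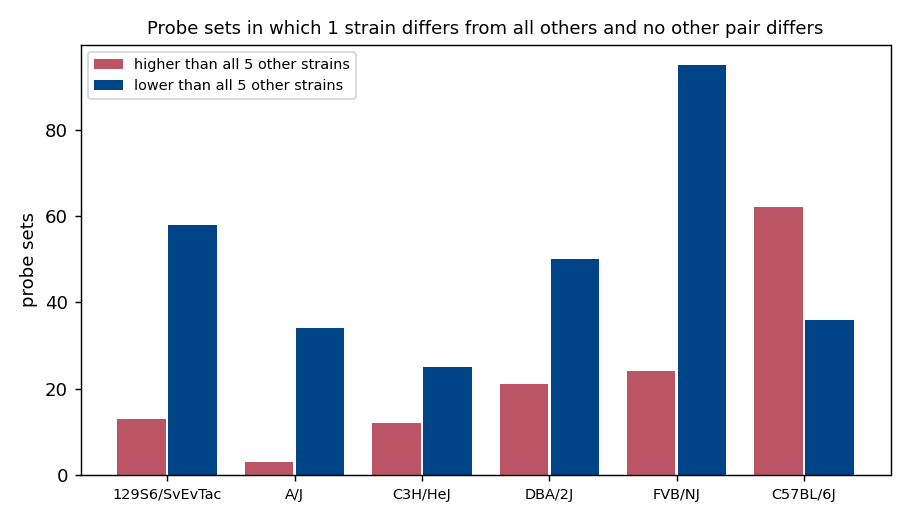
Probe sets in the pag in which 1 strain differed from each of the 5 other strains in the same direction and no other pair differed, by strain (bars start at 0, higher left and lower right within a strain). FVB/NJ had 24 higher and 95 lower, 129S6/SvEvTac 13 and 58 (but 135 and 62 without its array 1), A/J 3 and 34, and C57BL/6J 62 and 36 (but 20 and 25 without its array 2).

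C57BL/6J carried the widest difference of any probe set with a named gene. A probe set of Prune2, a gene expressed in the nervous system, had 1137 and 1131 in C57BL/6J, against 25.3 to 53.7 on the 10 arrays of the other strains (A/J minus C57BL/6J, log2 difference -5.46 ± 0.26 SE, adjusted p = 4.35e-07, limma). Another probe set of Prune2 ran the other way, with a mean of 281 in C57BL/6J and 526 to 781.5 in the other strains. The signal of Cap1, which encodes an actin-recycling protein, was 38.5 and 42.3 in C57BL/6J, against 460 to 594 in the other strains, and its other probe set averaged 77.7 in C57BL/6J and 746 or more elsewhere. All 5 differences of Cap1 passed the test, the widest being 3.73 ± 0.12 for 129S6/SvEvTac minus C57BL/6J (log2, adjusted p = 1.12e-08). Gnb1, a G protein beta subunit gene, was at 316 and 329 in C57BL/6J, against 1164 to 1434 in the other strains, and a brighter probe set of it averaged 915 in C57BL/6J, against 2656 to 3125. Tmem87a, which encodes a Golgi membrane protein, was at 11.2 and 18.1 in C57BL/6J, against 242 to 312. Hddc3 was at 87.3 and 92.7, against 338 to 448. A dimmer probe set of Hddc3 averaged 59.6 in C57BL/6J and 44.9 to 70.5 in the other strains and was not called. In the other direction, Arhgap26 was at 239 and 199 in C57BL/6J and no higher than 20.3 in the other strains, while a brighter probe set of it averaged 603 in C57BL/6J and 412 to 638.5 in the other strains. The long noncoding RNA gene Rmst was at 270.5 and 274 in C57BL/6J, against 6.84 to 42.2.

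FVB/NJ lost signal of genes that were bright in all other strains. Arhgap21 had 82.6 and 71.6 in FVB/NJ, against 573 to 748 on the other 10 arrays (C3H/HeJ minus FVB/NJ, 3.22 ± 0.099 on the log2 scale, adjusted p = 1.99e-08). Its other probe set, which averaged 419 in FVB/NJ and 383 to 554 in the other strains, was not called by the F test. Fgf1, which encodes an acidic fibroblast growth factor, was at 182 and 179 in FVB/NJ, against 836 to 1039, and a second probe set of Fgf1 showed the same picture with a mean of 123 in FVB/NJ, against 513 to 602. Creg2, a gene for a secreted glycoprotein, was the reverse. It reached 519 and 571 in FVB/NJ, against 15.04 to 51.2 in the other strains, a difference of -4.68 ± 0.46 for A/J minus FVB/NJ (log2, adjusted p = 0.000139). Psmc3ip, which acts in meiotic recombination, was at 155 and 173 in FVB/NJ, against 7.01 to 34.4. One probe set of Gnb1 reached 66.2 and 67.7 in FVB/NJ and stayed under the floor on all other arrays, whereas the brighter Gnb1 probe sets set C57BL/6J apart.

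In DBA/2J the noncoding transcripts Snhg14 and Neat1 were low. Snhg14, the long RNA that hosts snoRNA clusters in an imprinted domain, was at 53.8 and 27.5 in DBA/2J, against 518 to 965 in the other strains (A/J minus DBA/2J, log2 difference 4.44 ± 0.27, adjusted p = 3.35e-06). The other probe sets of Snhg14 were dimmer, averaging 119.6 and 26.8 in DBA/2J, and neither was called by the F test. Neat1, the RNA scaffold of nuclear paraspeckles, was at 75.8 and 56.8 in DBA/2J, against 294 to 778, and its dimmer probe set averaged 98.1 in DBA/2J and 90.4 to 117 in the other strains. Atxn1, the gene expanded in a spinocerebellar ataxia, was at 27.3 and 55.5 in DBA/2J, against 171 to 312, while another probe set of it averaged 264 in DBA/2J and 250 to 279 in the other strains without a call. So for Neat1 and Atxn1 1 probe set set DBA/2J apart and the other did not. Stab2, which encodes a scavenger receptor for hyaluronan, was higher in DBA/2J at 349.5 and 468, against 20.8 to 46.5 elsewhere (DBA/2J minus FVB/NJ, 4.14 ± 0.39 on the log2 scale, adjusted p = 7.49e-05). 1500004A13Rik was at 15.04 and 0.19 in DBA/2J, against 68.9 to 173.

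C3H/HeJ was set apart by Lin7c, a scaffold gene of synapses and cell junctions, in all 4 of its probe sets. The brightest had 42.2 and 17.6 in C3H/HeJ, against 383 to 515 on the other arrays, and C3H/HeJ minus DBA/2J was -4.09 ± 0.28 (log2, adjusted p = 8.31e-06). The other 3 averaged 10.8, 15.6 and 152 in C3H/HeJ, against at least 146, 69.1 and 249 in the other strains. A probe set of Casp9, the initiator caspase of the mitochondrial pathway of apoptosis, read 123 and 122 in C3H/HeJ and lay under the floor on all 10 other arrays, so that its difference of 3.26 ± 0.25 from each other strain (log2, adjusted p = 2.16e-05 for C3H/HeJ minus DBA/2J) is a lower bound. Both other Casp9 probe sets were also highest in C3H/HeJ, at means of 158 and 219, against at most 96.2 and 124 in the other strains. Trmt61a, which encodes the catalytic subunit of a tRNA methyltransferase, was at -26.8 and 15.2 in C3H/HeJ and at 41.5 to 86.8 elsewhere. Its call between C3H/HeJ and C57BL/6J was lost without array 1 of C57BL/6J.

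A/J was higher in Mtm1, the gene of myotubularin, a phosphoinositide phosphatase. Its signal was 593 and 554 in A/J, against 26.6 to 142 on the other arrays (129S6/SvEvTac minus A/J, -4.19 ± 0.24 on the log2 scale, adjusted p = 1.24e-06), and a second probe set averaged 682 in A/J and 124 to 262 in the other strains. A dimmer probe set of Mtm1, at 85.5 in A/J and 62 to 87.4 in the other strains, was not called. Commd9, whose product acts in endosomal sorting, was at 132 and 93.5 in A/J, against 422 to 554, while another probe set of it averaged 316 in A/J and 354 to 404 in the other strains without a call. Tekt5, a tektin gene of sperm flagella, was at 11.4 and 8.62 in A/J, both under the floor, against 80.8 to 132. Gm1976 was at 16.5 and 10.4 in A/J, against 53.1 to 123. Sde2, which acts in genome stability, lay under the floor on both A/J arrays, against 36.7 to 83.7, and lost its call between A/J and FVB/NJ without array 1 of FVB/NJ. Brighter probe sets of Sde2 averaged 204 and 188 in A/J, against 173 to 191.5 and 200.2 to 257, and were not called.

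In 129S6/SvEvTac the 5 genes with the widest gap, taken to the nearest other strain, were all lower. Dzip1, which encodes a zinc finger protein of cilia, was at -3.10 and -2.10 in 129S6/SvEvTac, against 169 to 349 on the other arrays, so that the difference to A/J was at least 4.48 on the log2 scale (-4.48 ± 0.21 for 129S6/SvEvTac minus A/J, adjusted p = 5.13e-07). A brighter probe set of Dzip1 averaged 633 in 129S6/SvEvTac and 845.5 to 1068 in the other strains. Tial1, an RNA-binding protein gene of stress granules, was at 2.69 and 11.7 in 129S6/SvEvTac, against 151 to 274. Brighter probe sets of Tial1 moved less and were called, with means of 406 and 206 in 129S6/SvEvTac, against 520 to 614 and 264 to 360. The remaining probe sets of Tial1 were not called. Esco1, which encodes an acetyltransferase of cohesin, was at 33.9 and 16.8, against 136 to 233. Ppcdc, an enzyme gene of coenzyme A synthesis, read 2.89 and 32.9, against 138 to 203, and Lztfl1, a gene for a protein of ciliary transport, 14.7 and 36.3, against 95.2 to 181. None of the other probe sets of Esco1, Ppcdc or Lztfl1 was called by the F test.

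**Figure D3:**
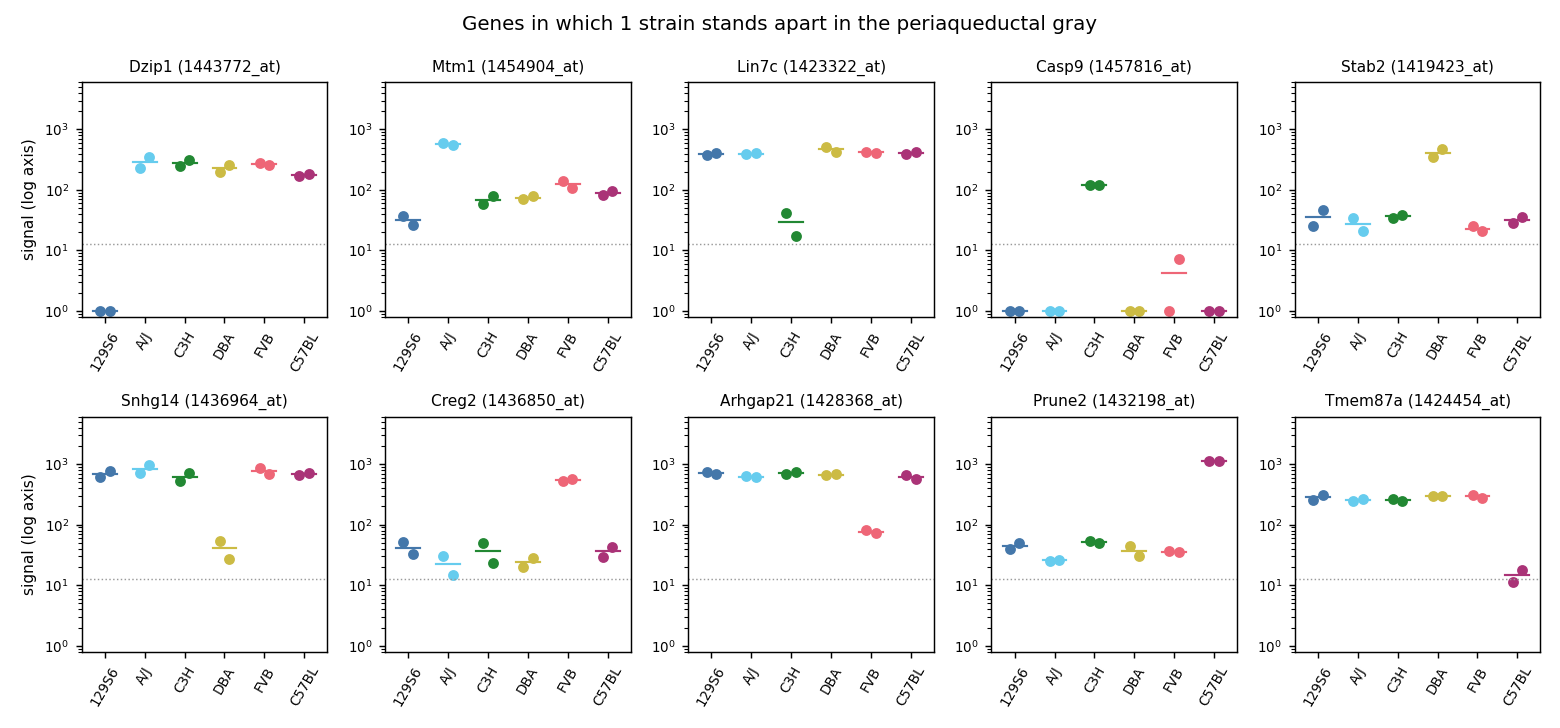
Signals of 10 genes in the pag in which 1 strain differed from all 5 others, 1 panel per probe set, with a point for each array, a short line for the mean of each strain and a log axis (points under 1 are drawn at 1 and enter the line as 1). The dotted line marks the floor of 12.8. Prune2 lay at 1137 and 1131 in C57BL/6J and at 25.3 to 53.7 in the other strains, and Lin7c at 42.2 and 17.6 in C3H/HeJ and at 383 to 515 in the others.

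Other genes split the strains into larger groups, 2 against 4 in 179 probe sets and 3 against 3 in 83. 129S6/SvEvTac and C57BL/6J stood together most often, in 23 probe sets, 20 of them higher in these strains. A/J with DBA/2J and C3H/HeJ with DBA/2J followed with 20 each, and A/J with C3H/HeJ and A/J with FVB/NJ had 16 each, of which 15 and 14 were lower. Uqcr10, which encodes a subunit of mitochondrial complex III, was split in this way. Its signal was 15.9 and 1.55 in A/J and 6.07 and 14.3 in FVB/NJ, against 300 to 370 in the other 4 strains, and A/J and FVB/NJ shared no value with the rest. The difference of 129S6/SvEvTac minus FVB/NJ was 4.62 ± 0.18 (log2, adjusted p = 1.38e-07). The brightest probe set of Uqcr10 was not called by the F test and averaged 1056 in A/J, 1418 in FVB/NJ and 1028 to 1285 in the other strains.

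Scn2b, a sodium channel beta subunit gene, and Syt4, a synaptotagmin gene of secretory vesicles, were both low in 129S6/SvEvTac and FVB/NJ. Scn2b read 64.4 and 95.6 in 129S6/SvEvTac and 50.7 and 43.6 in FVB/NJ, against 1048 to 1527 on the other 8 arrays. Syt4 read 87.6 and 90.1 in 129S6/SvEvTac and 76.9 and 65.7 in FVB/NJ, against 332 to 583. A second probe set moved much less in both genes. That of Scn2b averaged 1359 in 129S6/SvEvTac, its highest strain, and 733 in FVB/NJ, against 919 to 1288 in the other strains. That of Syt4 averaged 754 in 129S6/SvEvTac and 873 in FVB/NJ, against 831 to 1050 in the other strains. Phgdh, the first enzyme of serine synthesis, had 53.1 and 81.3 in 129S6/SvEvTac and 64.2 and 72.9 in DBA/2J, against 627 to 868 in the other 4 strains. An equally bright probe set of Phgdh moved less and was called, with means of 379 and 310 in these strains, against 530 to 672. A dimmer one, at 272 and 280, against 312 to 376, was not called by the F test, nor was the dimmest.

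C3H/HeJ and DBA/2J shared both a high and a low signal in Pdxdc1, a gene related to decarboxylases. One probe set had 388 and 473 in C3H/HeJ and 472 and 540 in DBA/2J, against -1.43 to 33.7 in the other strains, whereas another averaged 50.6 in C3H/HeJ and 50.1 in DBA/2J, against 377 to 479.4. Both were called, so the probe sets of Pdxdc1 disagree on which strains are high. The same strains were low in Acer3, a ceramidase gene, at 39.1 to 56.9, against 193 to 263. Stx3, a syntaxin gene of exocytosis, was low in A/J, at 56.7 and 30.7, and in FVB/NJ, at 23.5 and 40.5, against 184 to 266 in the other strains. A brighter probe set of Stx3 averaged 333 in A/J and 322.5 in FVB/NJ, against 271 to 316, and was not called.

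Histocompatibility genes followed the strains closely. The major histocompatibility complex encodes the cell-surface molecules that present peptides to T cells. 129S6/SvEvTac and C57BL/6J are known to carry its b haplotype, C3H/HeJ k, DBA/2J d, FVB/NJ q, and A/J a recombinant that is k at the H2-K end and d at the H2-D end. Of 17 class I and antigen presentation genes tested, 5 differed between strains (29.4%, against 7.95% over the brightest probe set of every gene), namely H2-K1, H2-D1, H2-Q2, B2m and Cd74. This list and the gene lists below were written with earlier results of these data known. Their shares of calls are therefore no independent test against all genes. H2-Q2 was dim, averaging 29.9 in 129S6/SvEvTac and 2.81 to 12.8 in the other strains. H2-Q2 and Cd74 each lost their call in 3 of 12 fits without a single array. Cd74 also lost it with one median for every array, and H2-Q2 with a floor at the 10th percentile.  H2-K1 had 75.2 and 75.6 in A/J and 32.5 and 38.7 in C3H/HeJ, against 401 to 570.4 in the other 4 strains (C3H/HeJ minus C57BL/6J, -3.98 ± 0.13 on the log2 scale, adjusted p = 1.64e-08). A/J and C3H/HeJ lay far below the rest and also differed from each other. The H2-K1 probe sets do not all read alike: another was low in C3H/HeJ, at 53.4 and 42.0, and high in FVB/NJ, at 751 and 733, with 193 to 325 in the other strains, A/J included.

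H2-D1 was lowest in C3H/HeJ and highest in FVB/NJ by its brightest probe set, with 171 and 198 in C3H/HeJ and 1432 and 1399 in FVB/NJ, against 481 to 698 in the other strains (C3H/HeJ minus FVB/NJ, -2.94 ± 0.12, log2, adjusted p = 7e-08). A further probe set of H2-D1 was present in A/J, at 266 and 235, and in DBA/2J, at 229 and 282, and no higher than 34.8 in the other strains. A/J and DBA/2J are the strains with the d haplotype at this end. B2m, the light chain of class I molecules, lies on another chromosome. It was at 542 and 447 in A/J and 468.5 and 587 in C3H/HeJ, against 972 and 1093 in C57BL/6J (A/J minus C57BL/6J, -1.07 ± 0.13, log2, adjusted p = 0.000848), a call lost when every array was scaled to one median. Class I genes are near-identical copies, and probe sets with the suffix _x_at can read several of them, so which H2 gene a signal came from is uncertain. The antigen transporter genes Tap1 and Tap2 and the immunoproteasome genes Psmb8, Psmb9 and Psmb10 were not called.

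Of 23 genes with DNA variants known between inbred strains, 8 were called (34.8%, against 7.95%), in a list also written with earlier results known. Glo1, which encodes glyoxalase and lies in a segment duplicated in some strains, had 2125 and 2137 in A/J, 1815 and 1612 in 129S6/SvEvTac, 1595 and 1516 in C3H/HeJ and 1599 and 1607 in DBA/2J, against 834 and 815 in FVB/NJ and 999 and 994 in C57BL/6J. The 4 strains with high Glo1 each differed from both low ones, and A/J minus FVB/NJ was 1.37 ± 0.075 (log2, adjusted p = 1.33e-06). Alad, the second enzyme of heme synthesis, was at 158 and 159 in C57BL/6J, against 260 to 492 on the arrays of the other strains, and all 5 differences from C57BL/6J were called. Nnt, the mitochondrial transhydrogenase gene that carries a deletion in C57BL/6J, was at 225 and 231 in C57BL/6J, against 304 to 449. FVB/NJ minus C57BL/6J was 0.94 ± 0.12 for Nnt (log2, adjusted p = 0.000732).

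Kcnj9, which encodes a subunit of the potassium channels through which opioid receptors inhibit neurons, had 118 and 123 in C57BL/6J, against 197 to 376 in the other strains. Of 2 other probe sets of Kcnj9 with a mean signal of at least 50, 1 was also lower in C57BL/6J. In 0 of them was C57BL/6J called lower in any pair. Gabra2, a GABA receptor subunit gene with an intronic deletion in C57BL/6J, had 70.3 and 41.7 in C57BL/6J, against 123 to 256, and DBA/2J minus C57BL/6J was 1.99 ± 0.24 (log2, adjusted p = 0.000499). In the probe sets of both genes whose signals are given, no array of C57BL/6J overlapped any other. Ide, the gene of an insulin-degrading protease, read 325 and 320 in A/J, against 348 to 492 elsewhere, and was lower in A/J than in 129S6/SvEvTac and FVB/NJ. Klrd1, a natural killer cell receptor gene, was dim on all arrays, at 9.81 to 40.03. Ide lost its call in 3 of 12 fits without a single array and Klrd1 in 7 of 12. Tyr and Tyrp1, pigment genes whose coding sequence differs between these strains, were not called.

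**Figure D4:**
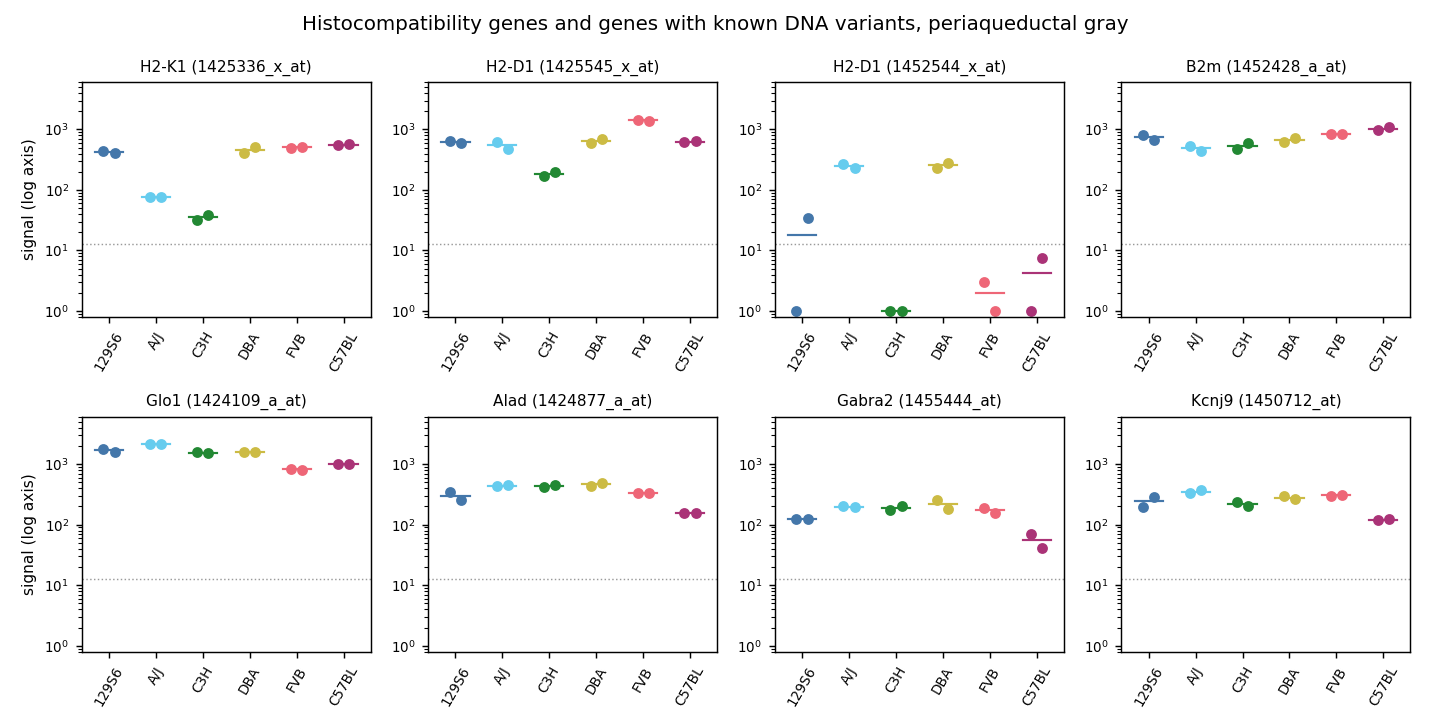
Signals of histocompatibility genes (upper row) and of genes with known DNA variants (lower row) in the pag, drawn with a point for each array, a line for the mean of each strain, a log axis, and the floor of 12.8 as a dotted line (points under 1 are drawn at 1). H2-K1 was lowest in C3H/HeJ and A/J, H2-D1 had 1 probe set that was high in A/J and DBA/2J, and Alad, Gabra2 and Kcnj9 were lowest in C57BL/6J.

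The lists of the pag's opioid and monoamine transmitter genes were too short to tell their share of calls from that of all genes. None of the 8 opioid peptide and receptor genes was called by limma or by a plain analysis of variance, where limma called 7.95% of all genes, but 4 of the 8 had an unadjusted p under 0.05, as had 23.1% of all probe sets. Penk, the enkephalin precursor, lay between 844 and 1106 on all 12 arrays, and its largest difference between strains was 0.31 on the log2 scale. Oprm1, the mu opioid receptor gene, was too dim to compare, at 0.20 to 35.4. Of 15 serotonin genes only Maob, a monoamine oxidase gene, was called (6.67%, against 7.95% over all genes). It read 549 and 446 in A/J, against 645 to 932.5 in the other strains, and was lower in A/J than in DBA/2J and FVB/NJ. The call against FVB/NJ was lost without array 2 of A/J or array 2 of FVB/NJ. None of 12 dopamine and noradrenaline genes was called by either test (6 had an unadjusted p under 0.05 in limma), although their median range of 1.16 on the log2 scale was above that of all genes (0.527). Slc6a2, the noradrenaline transporter gene, read 36.4 and 438 on the 2 arrays of C3H/HeJ and Th 1139 and 171 on those of 129S6/SvEvTac, so replicates of a strain were as far apart as strains.

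Of 44 neuropeptide and receptor genes 6 were called (13.6%, against 7.95% over all genes). Ntsr2, a neurotensin receptor gene, had 1481 and 1348 in A/J and 1499 and 1531 in DBA/2J, against 1862 to 2369 in 129S6/SvEvTac, C3H/HeJ and FVB/NJ and 1668 and 1758 in C57BL/6J (A/J minus FVB/NJ, -0.72 ± 0.090, log2, adjusted p = 0.000826). Cck, the cholecystokinin gene, was highest in FVB/NJ, at 397 and 344, against 213 to 279. Cartpt, which encodes the peptide precursor CART, had 661 and 935 in DBA/2J, against 2004 and 2248 in FVB/NJ, and Ucn, the urocortin gene of neurons beside the oculomotor nucleus, 75.2 and 51.2 in DBA/2J, against 202 and 193 in FVB/NJ. Nmb, the neuromedin B gene, was lowest in 129S6/SvEvTac, at 47.1 and 39.4, against 77.6 to 183 elsewhere. Vip was lowest in C57BL/6J, at 205 and 241, against 236 to 435. Ntsr2 kept its call without each single array, while Cck, Cartpt, Ucn, Nmb and Vip lost theirs in 2, 3, 4, 3 and 8 of 12 such fits.

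Fast transmitter genes gave 4 calls among 23 GABA and glycine genes (17.4%) and 4 among 23 glutamate genes (17.4%), against 7.95% over all genes. Besides Gabra2, the receptor subunit gene Gabrb2 was lower in DBA/2J, at 710 and 551, than in each other strain, at 829 to 1219 (DBA/2J minus FVB/NJ, -0.87 ± 0.12, log2, adjusted p = 0.00152). Gria4, an AMPA receptor subunit gene, was at 436 and 443 in C3H/HeJ, against 940 and 936 in FVB/NJ and 635 to 792 in the other 4 strains, and it was called in 8 pairs (C3H/HeJ minus FVB/NJ, -1.09 ± 0.079, adjusted p = 1.04e-05). Gria1, another AMPA receptor subunit gene, was highest in A/J, at 1141 and 1432, and lowest in C57BL/6J, at 702 and 658. Gabrg1, Glrb, Slc1a1 and Grik3 were called with smaller margins and each lost its call without at least 1 array. Among 19 endocannabinoid genes and sensory channels, Kcnj9 and the lipase gene Abhd6 were called (10.5%, against 7.95%), and Abhd6 lost its call in 8 of 12 fits without a single array.

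Among glial markers, those of microglia and astrocytes gave calls and those of oligodendrocytes gave none. The marker lists too were written with earlier results of these data known. Of 11 microglial markers 5 were called (45.5%, against 7.95% over all genes): the complement genes C1qa, C1qb and C1qc, Tyrobp and Ctss. C1qc was highest in C57BL/6J, at 231 and 248, against 90.5 to 151 on the other arrays, and C3H/HeJ minus C57BL/6J was -1.37 ± 0.17 (log2, adjusted p = 0.000761). C1qb was also highest in C57BL/6J, at 238 and 249.5, against 90.2 to 151. C1qa was lowest in 129S6/SvEvTac, at 169 and 121, against 176 to 312.5, and so was Ctss, a lysosomal protease gene, at 404 and 333, against 429 to 652.5. C1qb and Tyrobp each lost their call in 3 and Ctss in 2 of 12 fits without a single array, Tyrobp and Ctss also without both arrays that stood apart, and C1qb and Ctss with one median for every array. The summed signal of all 11 microglial markers was 2002 to 2761 on the 12 arrays, with 2606 and 2695 in C57BL/6J and 2195 and 2002 in 129S6/SvEvTac. The part of microglial content in these values was not tested.

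Of 10 astrocyte markers 4 were called (40.0%), all with small differences. Aqp4, the water channel gene of astrocyte endfeet, was at 1457 and 1547 in DBA/2J, against 899 to 1144 in the other strains (129S6/SvEvTac minus DBA/2J, -0.70 ± 0.094, log2, adjusted p = 0.00144). Of 2 other probe sets of Aqp4 with a mean signal of at least 50, 1 was also higher in DBA/2J. In 0 of them was DBA/2J called higher in any pair. Slc1a2, the main glutamate transporter gene, was at 2025 and 2034 in C3H/HeJ, against 2433 to 2834, and Slc1a3 and Glul had largest differences of 0.44 and 0.41. With one median for every array the differences of Aqp4, Slc1a2, Slc1a3 and Glul no longer passed. None of the 11 oligodendrocyte markers, 16 immediate early genes or 9 cerebellar markers was called by limma or the plain analysis of variance. In limma 4, 0 and 4 of them had an unadjusted p under 0.05, against 23.1% of all probe sets. The thalamic marker Tcf7l2 was called, at 711 and 856 in A/J and 454 and 601 in DBA/2J, against 176 to 430 in the other strains. Tcf7l2 is 1 of the 6 markers in the thalamic sum given above, so that sum is no independent check on it. The part of thalamic tissue in the A/J values was not tested.

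Most strain differences of the pag were also found in the other regions. Of the 3404 probe sets, 3035 (89.2%) differed between strains on the 49 arrays of the other 4 regions, against 43.5% of all probe sets tested, with 49 arrays in place of 12. The strains with the largest difference in the pag differed in the same direction there in 88.0% of the 3404, against 59.2% of all. For the 433 probe sets with 1 strain apart, 414 (95.6%) differed elsewhere as well. Whether a strain difference in the pag departs from that elsewhere was tested directly, as the strain's distance from the mean of the other strains in the pag minus the same distance averaged over the other 4 regions. It did so in 2208 of all probe sets (5.37%) and in 847 of the 3404 (24.9%), so most of those called were not shown to differ from the other regions. The 3404 were chosen on the same pag arrays that enter this test. That choice can raise their share, so 24.9% and 5.37% are not compared. Single strains departed in 600 probe sets for DBA/2J, 383 for A/J, 325 for FVB/NJ, 84 for C57BL/6J, 36 for 129S6/SvEvTac and 31 for C3H/HeJ. The number of departures was 3708 without array 1 of 129S6/SvEvTac, 3501 without array 2 of C3H/HeJ, 1168 without array 1 of DBA/2J, 1270 without array 2 of FVB/NJ and 1433 without array 2 of A/J.

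The smallest F p for a departure was that of Septin3, a septin gene of neurons. In the pag it had 787 and 755 in A/J and 814 and 837 in DBA/2J, against 1082 to 1591 in the other strains. A/J averaged 1079 in the bnst, 1337 in the hippocampus and 1045 in the hypothalamus, within the 813 to 1625 that the other strains spanned there. The A/J distance was 0.78 ± 0.089 lower in the pag than elsewhere on the log2 scale (-0.78, adjusted p = 4.68e-06, limma). A second probe set of Septin3 averaged 1170 to 1316 in the pag of the 6 strains and was not called. Ddah1, which degrades an inhibitor of nitric oxide synthases, was low in DBA/2J in all regions, but more so in the pag. It had 253 and 259 in DBA/2J pag, against 769 to 1123 in the other strains, whereas DBA/2J averaged 432 in the hippocampus, against 718 to 907 (departure of DBA/2J, -0.91 ± 0.11 on the log2 scale, adjusted p = 8.06e-06, limma).

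Trmt61a departed in C3H/HeJ, where its pag arrays had -26.8 and 15.2 while its means elsewhere, 84.4 to 107, were like those of the other strains, 55.5 to 146. C3H/HeJ array 1, with the value of -26.8, was 1 of the 2 arrays that stood apart. Rasl11b, a small GTPase gene, was low in C3H/HeJ, at 32.2 and 25.6, and DBA/2J, at 32.6 and 36.5, against 118 and 144 in C57BL/6J and 71.0 to 98.2 in the other strains. C3H/HeJ and DBA/2J were also the 2 lowest strains by their means in the bnst (69.3 and 65.2, against 99.4 to 123), the hypothalamus (120 and 103, against 193 to 231) and the pituitary gland (122 and 96.6, against 148.5 to 185), but not in the hippocampus (687 and 773, against 717 to 1024). Olfm3, an olfactomedin gene, was highest in DBA/2J pag, at 270 and 223, where it averaged 161 in the hypothalamus, the lowest of the 6 strains. Dock9, Washc2 and Mindy2 also departed, with differences between strains under 2-fold in the pag.

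Ptk2b, a tyrosine kinase gene, and Rab6b, a Golgi GTPase gene, departed in a probe set that was not called between strains in the pag (adjusted p = 0.258 and 0.336 by limma's F test). This probe set of Rab6b had 1632 to 2134 on all pag arrays and a mean of 202 in the pituitary gland of C57BL/6J, against 4.005 to 25.0 in that of the other strains. Of 3 other probe sets of Rab6b, 2 were called in the pag, the stronger averaging 143 in FVB/NJ and 206 in DBA/2J, against 318 to 400.4 in the other strains. Pou4f1, a transcription factor gene of midbrain neurons, read 35.5 and 27.6 in FVB/NJ pag, against 51.4 to 328 in the other strains, and was lower in FVB/NJ than in A/J, C3H/HeJ and DBA/2J. Its means elsewhere were 22.7 to 62.5. Gabra2 in C57BL/6J was lower than in the other strains in the bnst, hippocampus and hypothalamus too, at means of 140.0, 256 and 155, against at least 199, 474 and 206. It lay further below them in the pag than on average over the other 4 regions (-0.999 ± 0.20 on the log2 scale, adjusted p = 0.0166, limma). That average includes the pituitary gland, where C57BL/6J had a mean of 52.4, against 50.1 to 88.5.

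**Figure D5:**
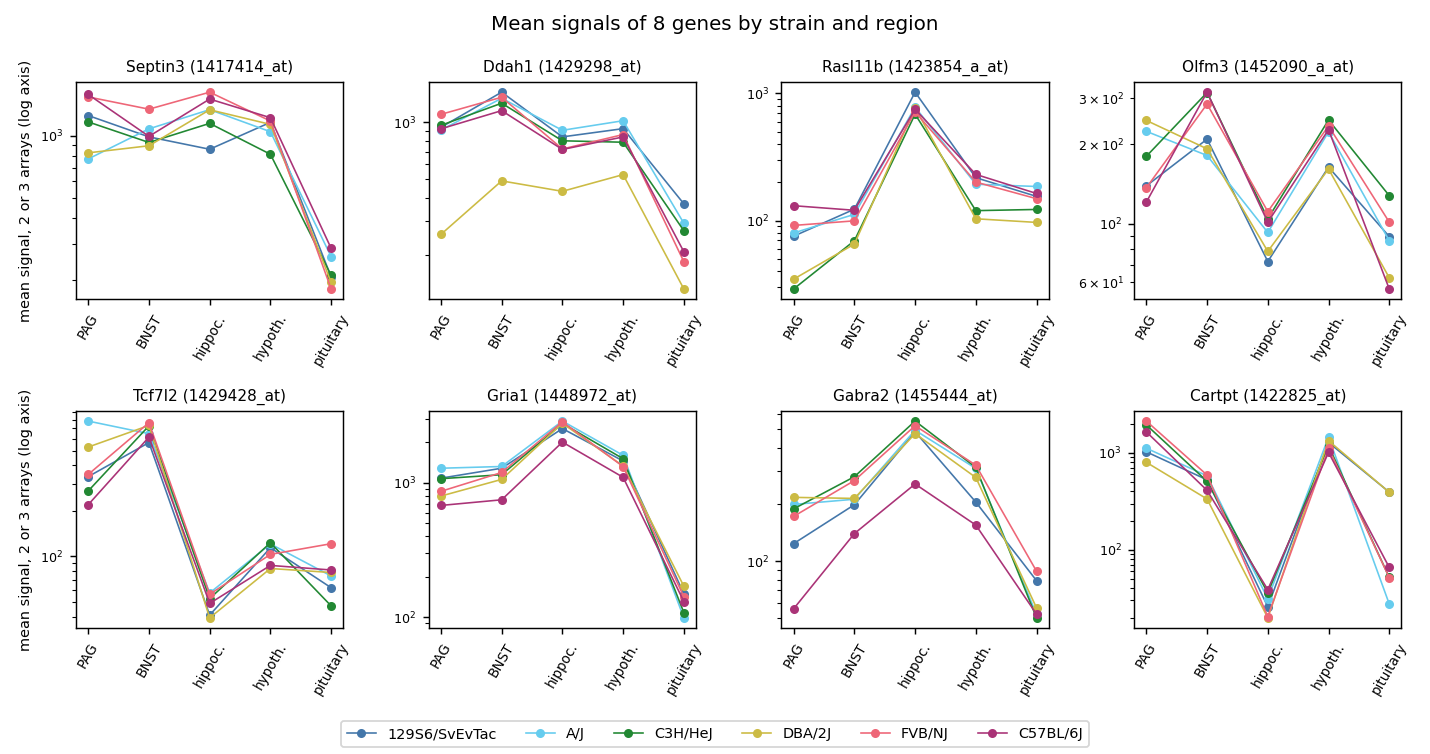
Mean signals by strain (colored lines) in the pag and the other 4 regions for 8 genes, on log axes that differ between panels, with each point the mean of 2 or 3 arrays. The A/J and DBA/2J lines of Septin3 lie below the others in the pag (771 and 825, against 1166 to 1584), the DBA/2J line of Ddah1 lies lowest throughout, and Tcf7l2 runs between 220 and 783 in the pag, against 565 to 764 in the bnst.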

How the data were processed

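Total RNA of the pag was hybridized to Affymetrix short-oligonucleotide arrays. The authors deposited signal intensity values per probe set, computed with the TeraGenomics software and scaled by them to a like mean on every array (188.6 to 199.1 on the 12 pag arrays), and these were used without further scaling. Values below 0 made up 5.15 to 6.47% of an array. Control probe sets (64) were left out, values under 12.78 (the 20th percentile of the series) were raised to it, log2 was taken, and 41085 of 45037 probe sets above that floor on at least 2 of the 12 arrays were tested. Of all probe sets, 34945 name 1 gene in the platform annotation (34741 matched to RefSeq), 932 several and 9160 none, and only those with 1 gene were named.

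One mean per strain was fitted with limma 3.58.1 in R 4.3.3, with an F test over the 6 strains and all 15 pairs, each adjusted by the Benjamini-Hochberg method over all probe sets tested and called at 0.05. A fit of all 61 arrays in 30 groups of strain and region compared the pag with the other regions. Figures were drawn with matplotlib 3.10.9. On simulated arrays with 50 probe sets changed in 1 strain at each size, the F test found 19, 44, 50 and 50 at log2 changes of 0.5, 1, 2 and 3, with 14 false among 177 calls. The changed probe sets were taken only from the brighter ones, and noise was drawn independently with the spread fitted by limma. These shares therefore do not hold for dimmer probe sets.

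Named genes were the 12 with the smallest F p, the 5 with the widest gap for each strain apart, 2 for each of the 5 most frequent larger splits, the 10 with the smallest p for a departure from the other regions, and the called members of the gene lists, read by the brightest probe set of a gene. Members and lists were chosen with earlier results of these data known. Lists not described with the results were 8 endothelial (1 called, Slco1a4), 2 red blood cell, 7 choroid plexus, 5 cranial motor neuron and 4 hippocampal and cortical markers (none called by limma or a plain analysis of variance, with 1, 1, 1 and 0 at an unadjusted p under 0.05 in limma), and the 13 midbrain and raphe markers (2 called, Ucn and Pou4f1). Over all probe sets 23.1% had an unadjusted p under 0.05 in limma. The alternatives were other floors, filters and scalings, a plain analysis of variance, the spread of all 61 arrays, a replicate block and leaving out arrays. Same-numbered arrays of different strains did not deviate together (r = -0.32 to 0.066 over 15 pairs of strains, 0 over 0.1), so the numbers do not pair the arrays. Short probes can lose signal where a strain carries a DNA variant under them, which was not tested.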

Additional observations from a re-analysis of the deposited data

Results flagged for a closer look

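For 31 of the 97 genes and probe sets named above, the strain differences in the pag departed from those in the other 4 regions by the limma F test over all 61 arrays, and 29 of the 31 were also called between strains in the pag. The share was 5.37% over all probe sets and 24.9% over those called between strains in the pag, and 10 of the 31 had been chosen by this p. Those called in the pag were chosen on arrays that also enter this test, which can raise their share. Each adjusted p below is that of this test. The smallest were 7.73e-07 for Septin3, 1e-05 for Ddah1, Ptk2b and Trmt61a, 3.69e-05 for Rab6b, 4.07e-05 for Rasl11b, 6.34e-05 for Dock9, 7e-05 for Olfm3, 8.45e-05 for Washc2 and 0.000104 for Mindy2, which are these 10.

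Among genes chosen otherwise, 2 were peptide genes. In 129S6/SvEvTac the distance of Nmb from the other strains was lower in the pag than averaged over the other regions (log2 departure -1.70 ± 0.23, adjusted p = 0.000284). Nmb averaged 43.2 in the pag of this strain, against 90.6 to 149, but 718 in its pituitary gland, against 116 to 332. It was lowest in the bnst too, and within the range of the other strains in the hippocampus and hypothalamus. Cartpt had an adjusted p of 0.000618. Its pituitary means were 393 in 129S6/SvEvTac and 392 in DBA/2J, against 27.6 to 65.7. Transcription factor genes departed through A/J, in which Tcf7l2 was higher in the pag (1.17 ± 0.23, adjusted p = 0.00122), and through FVB/NJ, in which Pou4f1 was lower (-2.23 ± 0.41, adjusted p = 0.00159). The A/J arrays were also those with the highest summed thalamic markers, a sum that includes Tcf7l2.

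Receptor and channel genes were Scn2b (adjusted p = 0.00302), Gabra2 (0.00451), Gria1 (0.00895) and Grik3 (0.0168), and the signaling and vesicle genes Gnb1 (0.0039) and Syt4 (0.00486). In FVB/NJ Scn2b averaged 47.1 in the pag and 69.3 in the bnst. The strains other than FVB/NJ and 129S6/SvEvTac had 1073 to 1351 and 1084 to 1436 there. In the pituitary gland, which enters the average over other regions, FVB/NJ had 78.4, against 197 to 279 in those strains. Immune and glial genes were H2-Q2, which was dim in the pag (adjusted p = 6e-04), H2-D1 (0.0245), C1qc (0.0304), C1qa (0.0475) and Aqp4 (0.0479). The others were Neat1 (0.00121), Uqcr10 (0.0155), Tekt5 (0.0161), Maob (0.0223), Cap1 (0.0242) and 1500004A13Rik (0.0447). For Uqcr10, Grik3, C1qc, C1qa, Cartpt and 1500004A13Rik no single strain's departure passed its own adjusted p of 0.05.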

How the results depend on the processing

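With 2 arrays a strain the counts depended on single arrays and on scaling, while no named difference changed sign. Across 2022 checks of the 97 named differences, 1886 stayed on their side of the threshold, 134 lost the call, 2 (Ptk2b and Rab6b) gained it and 0 changed sign, and 70 of the 95 called kept the call without each single array.

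Scaling every array to one median gave 1660 probe sets by the F test. By pair it gave 524 for 129S6/SvEvTac minus A/J, 293 minus C3H/HeJ, 448 minus DBA/2J and 351 (92 higher, 259 lower, against 232 and 405) minus C57BL/6J. For A/J it gave 280 (172 higher, 108 lower, against 284 and 296) minus C3H/HeJ, 327 minus DBA/2J, 568 (168 and 400, against 592 and 684) minus FVB/NJ and 531 minus C57BL/6J. For C3H/HeJ it gave 288 minus DBA/2J and 476 (108 and 368, against 261 and 515) minus C57BL/6J. For DBA/2J it gave 759 (194 and 565, against 682 and 725) minus FVB/NJ and 636 (173 and 463, against 762 and 933) minus C57BL/6J, and for FVB/NJ minus C57BL/6J 678 (326 and 352, against 493 and 971). The split was 278 higher and 817 lower for 129S6/SvEvTac minus FVB/NJ (against 925 and 659) and 248 and 1089 for C3H/HeJ minus FVB/NJ (against 892 and 791), so the balance turned round in both. Probe sets with 1 strain apart were then 34 for 129S6/SvEvTac, 18 for A/J, 19 for C3H/HeJ (3 higher, 16 lower, against 12 and 25), 41 for DBA/2J and 60 for FVB/NJ (26 and 34, against 24 and 95), and departures from other regions 4232.

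With the spread of all 61 arrays the F test called 5828, the pairs 1707 for 129S6/SvEvTac minus A/J, 907 minus C3H/HeJ and 1059 minus C57BL/6J, 1023 for A/J minus C3H/HeJ, 973 for A/J minus DBA/2J and 1062 for C3H/HeJ minus DBA/2J, and 114 and 58 probe sets set 129S6/SvEvTac and A/J apart. Without both arrays that stood apart, a choice made after seeing the data, the F test called 3405 and the pairs 336 for 129S6/SvEvTac minus C3H/HeJ, 809 for 129S6/SvEvTac minus FVB/NJ, 312 for A/J minus C3H/HeJ, 1060 for C3H/HeJ minus FVB/NJ and 2214 for DBA/2J minus FVB/NJ, with 38 and 16 probe sets for 129S6/SvEvTac and C3H/HeJ apart. Probe sets with a mean signal of at least 50 gave 183 for FVB/NJ apart, and a plain analysis of variance with Benjamini-Hochberg adjustment called 1152. The fit with the replicate number as a block called 2802 by the F test, and since the numbers share nothing else this bears on no pairing.

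Leaving out each array in turn, the F test called 1955 to 3916. The pairs ran from 404 to 1472 for 129S6/SvEvTac minus A/J, 363 to 596 minus C3H/HeJ, 484 to 1618 minus DBA/2J, 518 to 3128 minus FVB/NJ and 270 to 937 minus C57BL/6J. For A/J they ran from 228 to 804 minus C3H/HeJ, 266 to 687 minus DBA/2J, 377 to 1489 minus FVB/NJ and 385 to 1581 minus C57BL/6J. For C3H/HeJ they ran from 283 to 707 minus DBA/2J, 485 to 2105 minus FVB/NJ and 334 to 812 minus C57BL/6J, for DBA/2J from 429 to 1655 minus FVB/NJ and 463 to 1986 minus C57BL/6J, and for FVB/NJ minus C57BL/6J from 512 to 1710. One strain was apart in 38 to 197 probe sets for 129S6/SvEvTac, 23 to 43 for A/J, 20 to 46 for C3H/HeJ, 33 to 61 for DBA/2J, 46 to 116 for FVB/NJ and 45 to 90 for C57BL/6J, and departures numbered 1168 to 3708. A strain left with 1 array was assumed to vary like the others. The cause of these changes was not tested beyond the fewer arrays.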

Other observations

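Of 3 genes of the Y chromosome tested, 2 differed between the strains (Kdm5d and Eif2s3y) and Uty was not called, where 7.95% of all genes were called. All mice were male. Kdm5d, which encodes a histone demethylase, had 192 and 194 in C3H/HeJ, against 79.6 to 125 on the arrays of the other strains, and Eif2s3y, a translation factor gene, 248 and 319 in C3H/HeJ, against 56.4 to 194.5. The difference of C3H/HeJ minus FVB/NJ was 1.26 ± 0.16 for Kdm5d and 2.00 ± 0.22 for Eif2s3y (log2, adjusted p = 0.000932 and 0.000264, limma). Xist, the RNA of the inactive X chromosome, was at 13.9 to 61.4 and was not called.

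Probe sets of a gene with 1 strain apart often did not move together. For 275 such probe sets, the same genes had 583 other probe sets with a mean signal of at least 50, of which 376 (64.5%) differed in the same direction, 178 (30.5%) were called in at least 1 of the pairs, and 89 (15.3%) in all 5. Variants under the probes were not tested.

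Called genes had a neighbor on the chromosome that was called as well in 621 of 2195 cases (28.3%), against 3421 of 14793 (23.1%) for genes that were not called.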
